A study of Mus musculus with 6 samples.

Results

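The annexins are 9 of the 12161 genes measured in mouse blood progenitor cells that carried either added Hhex or an empty vector. They were taken as every row whose symbol is Anxa followed by digits, which gave Anxa1, Anxa2, Anxa3, Anxa4, Anxa5, Anxa6, Anxa7, Anxa9 and Anxa11. Of the 12 Anxa genes that RefSeq lists for the mouse, Anxa8, Anxa10 and Anxa13 were not analysed here. The members were thus chosen by name and by presence in the table, and the family itself was selected on the known MIG-Hhex against MIG differences of these libraries. Each of the 9 lay above 1.8 on the log2 scale in each of the 6 libraries, so none is there through one group alone.

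Messenger RNA was sequenced from LSK cells of C57BL/6 bone marrow, sorted as lacking lineage markers and carrying Sca1 and Kit, which holds the blood stem cells and earliest progenitors. The MIG-Hhex group holds 3 libraries of cells given the MIG retrovirus with Hhex, a homeobox transcription factor, and the MIG group holds 3 libraries of cells given the same GFP vector alone. Both groups were grown for 2 days after transduction in a cytokine mix (10 ng/mL each of IL-6 and IL-3, 50 ng/mL each of Flt3 ligand and stem cell factor) and were sorted for GFP before RNA was taken. The replicate names WT3, WT691 and WT703 recur in both groups, and each flow cell held both groups: C3RJFACXX the WT3 pair, C5LWPANXX the other 4 libraries. Added Hhex is ectopic expression from a retrovirus in cultured cells, and nothing in the labels says whether each library came from a separate mouse. The p-values thus set a difference against the residual spread among these libraries, which may not be that between mice.

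Annexins are proteins that bind negatively charged phospholipids, phosphatidylserine above all, when calcium rises. They share a folded core made of repeats, and differ in the amino-terminal tail, which binds partners such as S100 proteins. In blood cells they are known for roles in vesicle traffic, membrane repair and the damping of inflammation, and Anxa1 and Anxa3 are abundant in granulocytes and monocytes.

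Before the values, the upstream sequence of 3 annexins is shown, because Anxa1 and Anxa2 fell together and Anxa4 was the member that rose. Each run is the 250 bases before a RefSeq transcription start on GRCm38.p6, read 5′ to 3′ on the strand of the gene. The Anxa1 run is chr19:20390672-20390921 on the minus strand, the Anxa2 run chr9:69453433-69453682 on the plus strand and the Anxa4 run chr6:86793585-86793834 on the minus strand. Capitals mark matches on either strand to 5 motifs: ATTAA, a homeodomain-type core; TATAA, the core of the TATA box; GGGCGG, the GC box; GGAAGT, an ETS-type core; and TTGCNNAA, a C/EBP-type sequence.
Anxa1: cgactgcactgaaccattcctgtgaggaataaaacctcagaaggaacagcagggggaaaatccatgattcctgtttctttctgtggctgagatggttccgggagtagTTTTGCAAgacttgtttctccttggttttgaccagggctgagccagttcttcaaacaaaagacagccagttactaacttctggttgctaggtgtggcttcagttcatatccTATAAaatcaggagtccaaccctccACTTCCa
Anxa2: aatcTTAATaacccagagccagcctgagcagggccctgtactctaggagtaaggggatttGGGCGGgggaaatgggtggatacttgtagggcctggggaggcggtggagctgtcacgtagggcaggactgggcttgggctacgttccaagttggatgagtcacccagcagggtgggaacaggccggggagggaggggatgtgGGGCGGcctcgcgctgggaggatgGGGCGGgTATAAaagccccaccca
Anxa4: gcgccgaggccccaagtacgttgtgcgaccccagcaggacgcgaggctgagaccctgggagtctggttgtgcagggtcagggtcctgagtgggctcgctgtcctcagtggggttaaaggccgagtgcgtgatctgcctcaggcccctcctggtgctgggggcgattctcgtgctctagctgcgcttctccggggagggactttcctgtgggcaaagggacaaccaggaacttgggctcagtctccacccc
The Anxa1 run ends with a TATAA 28 to 32 bases before the start, and the Anxa2 run has a TATAA 13 to 17 bases before it. The Anxa4 run printed holds none of the 5 motifs. A second Anxa4 window in the table, chr6:86775115-86775364, holds ATTAA 2 times and GGAAGT and TTGCNNAA 1 time each. TATAA occurs in 22.8% of the 32851 windows of this kind in the RefSeq table, and in 0 of the other 8 windows of the annexins that have one there, those of Anxa4, Anxa5, Anxa7, Anxa9 and Anxa11. Anxa9, also called lower, is thus among those without it, and Anxa3, which fell too, has no window there. ATTAA occurs once in the Anxa2 run and 0 times in the Anxa1 run, against 24.9% of all windows with at least 1 match. GGAAGT and TTGCNNAA occur 1 time each in the Anxa1 run as well, and in 19.7% and 9.6% of all windows. The Anxa1 run has 2 CpG dinucleotides, the Anxa2 run 9 and the Anxa4 run 13, and the median window has 6. The matches describe letters in these windows and not bound sites. Anxa3 and Anxa6 are named without a sequence.

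The vector gene itself separated the groups. Hhex lay at 7.61, 9.34 and 9.06 in MIG-Hhex libraries WT3, WT691 and WT703, and at 5.18, 5.05 and 5.13 in MIG libraries in the same order. Its rise was smallest in the WT3 pair, 2.43 on the log2 scale, against 4.29 and 3.93 in the other pairs. Values throughout are the deposited log2 expression levels, with library medians between 3.56 and 3.60 and an unknown sequencing depth. Of the LSK markers listed, 12 of 12 were measured, 0 rose and 1 fell. That gene was Meis1, a homeobox factor of stem cells (−0.79, limma adjusted p = 0.0107), and Kit averaged 4.56 with MIG-Hhex and 4.73 with MIG. Ly6a, which encodes Sca1, lay at 3.55 and 3.18 in the MIG-Hhex and MIG libraries of WT3 and between 5.89 and 6.25 in the other 4 libraries, so the WT3 libraries stood apart in a gene that defines the sorted cells. With MIG-Hhex, 9.44% of all genes were higher and 8.52% lower (limma with a flow cell term, Benjamini-Hochberg adjusted p under 0.05).

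With MIG-Hhex, the 3 annexins with the highest levels in MIG cells fell, while the other 6 members differed by less. Anxa1 was 3.88-fold lower, Anxa3 3.67-fold lower and Anxa2 2.18-fold lower. Anxa9, the member with the lowest level, was 1.28-fold lower, and Anxa4 was 1.45-fold higher. In all, 4 of the 9 annexins were lower, against 8.52% of all genes, and 1 was higher, against 9.44%, while 4 did not pass the test. The Anxa9 call was lost with any library or pair removed, and the Anxa4 call with some of them removed, as given below. The groups did not overlap for 4 of the 9 members, against 21.2% of all genes, 3 with all MIG-Hhex libraries below all MIG libraries and 1 above, against 11% and 10.2% of all genes. The median member differed by −0.09 on the log2 scale and the median of all genes by −0.02. The family was picked with the results of MIG-Hhex against MIG known, so p-values adjusted over all genes describe its members and give the family no independent support. In RNA from a sorted population, fewer cells that express a gene and less of its RNA per cell cannot be told apart.

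**Figure D1:**
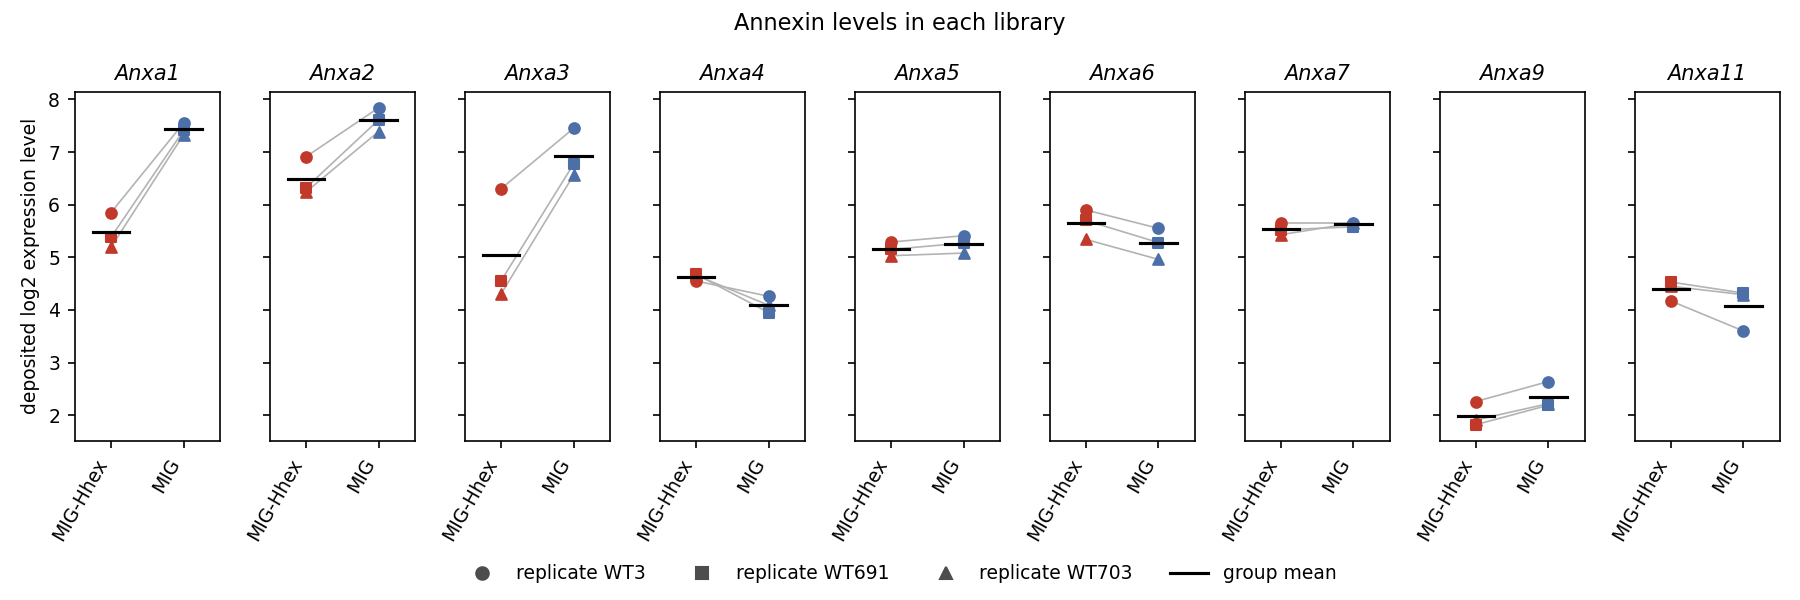
Deposited log2 expression level (vertical axis) of each annexin in the 3 MIG-Hhex libraries (red, left) and the 3 MIG libraries (blue, right); marker shapes show the replicate, grey lines join libraries of equal replicate name and black bars are group means. All 3 MIG-Hhex libraries sit below all 3 MIG libraries for Anxa1, Anxa2 and Anxa3 and above them for Anxa4, and the WT3 library is the highest of the MIG-Hhex group for Anxa3, at 6.30.

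Anxa1, also called lipocortin, is induced by glucocorticoids and restrains neutrophil recruitment through formyl peptide receptors. The gene lies at chr19:20373434-20390671 (GRCm38.p6, minus strand). Its level was 5.85, 5.38 and 5.19 in MIG-Hhex libraries WT3, WT691 and WT703, and 7.55, 7.41 and 7.33 in MIG libraries. No MIG-Hhex library reached the lowest MIG library. On the log2 scale the difference was −1.96 (SE 0.10, limma adjusted p = 0.000528), the seventh smallest p of all genes. Anxa1 fell in 3 of 3 pairs, by 1.70 in the WT3 pair and by 2.03 and 2.14 in the WT691 and WT703 pairs. In MIG libraries Anxa1 ranked between percentiles 96.1 and 96.8 of all genes in the library, and in MIG-Hhex libraries between 77.9 and 84.8.

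Anxa2 links membranes to actin and, with its partner S100a10, forms a complex that gathers plasminogen at the cell surface. It lies at chr9:69453683-69491792 on the plus strand. The level was 6.91, 6.32 and 6.24 in MIG-Hhex libraries WT3, WT691 and WT703, and 7.84, 7.61 and 7.39 in MIG libraries. Here too the highest MIG-Hhex library, WT3, stayed under the lowest MIG library, WT703. The difference was −1.12 (SE 0.09, limma adjusted p = 0.00137), with pair differences of −0.93, −1.29 and −1.15. Anxa2 remained the annexin with the highest mean level in either group.

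Anxa3 is a granule-associated annexin of neutrophils and their precursors, at chr5:96793385-96845968 on the plus strand. Its level was 6.30, 4.55 and 4.30 in MIG-Hhex libraries WT3, WT691 and WT703, and 7.45, 6.77 and 6.56 in MIG libraries. The WT3 library was the highest of its group on both sides, and the MIG-Hhex mean of 5.05 ± 1.09 (SD, n = 3) therefore hides a wide spread. The difference was −1.87 (SE 0.22, limma adjusted p = 0.00401). By flow cell it was −1.14 in the single pair on C3RJFACXX and −2.24 (SE 0.12, limma adjusted p = 0.00321) over the 4 libraries on C5LWPANXX. A term for the difference between flow cells, added after the values were seen, was −1.10 (SE 0.20, limma adjusted p = 0.928). In this term 0 of the 12161 genes passed limma's adjusted threshold, while 600 genes (4.93%), Anxa1, Anxa3, Anxa4 and Anxa11 among them, had an unadjusted p below 0.05. The gap in Hhex between the groups was also narrower on C3RJFACXX, as given above, and its part in this difference was not tested.

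For the other called members the flow cells gave values of like sign. Anxa1 differed by −1.70 on C3RJFACXX and −2.08 on C5LWPANXX (limma adjusted p = 0.00195), and Anxa2 by −0.93 and −1.22 (limma adjusted p = 0.00522). Without the flow cell term, the calls of Anxa2 and Anxa3 were lost (limma adjusted p = 0.06 and 0.16), and that of Anxa1 was not.

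**Figure D2:**
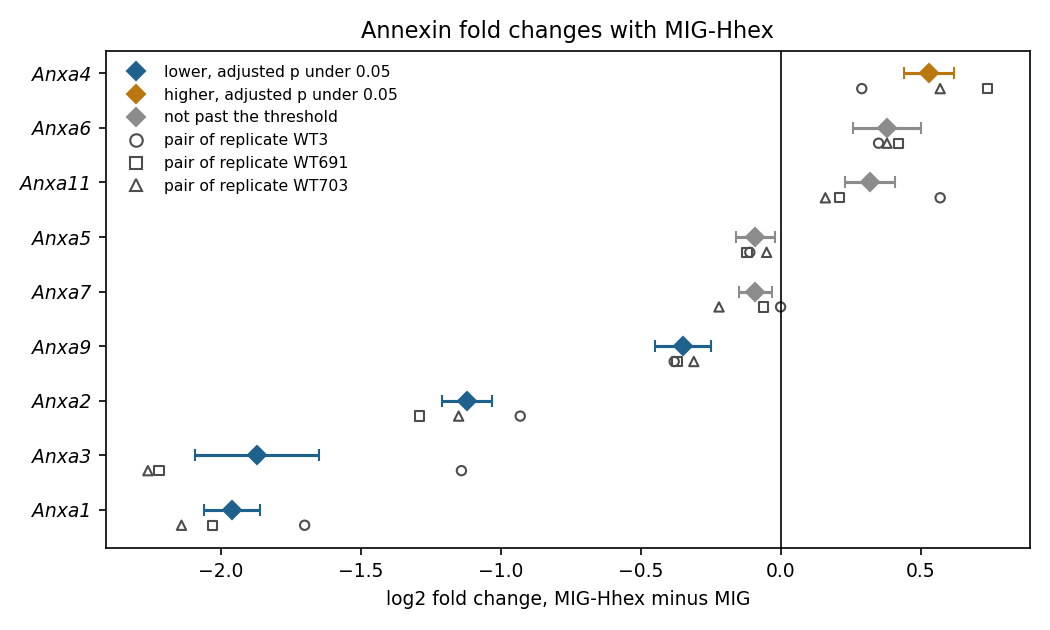
Log2 fold change of each annexin, MIG-Hhex minus MIG (horizontal axis); diamonds are limma estimates with bars of 1 standard error, and open symbols below them the differences in the 3 replicate pairs. Anxa1, Anxa3 and Anxa2 lie at −1.96, −1.87 and −1.12, and the remaining 6 annexins between −0.35 and 0.53.

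A few other highly expressed genes had differences of that size. Taking as limits Anxa3's mean over the 6 libraries, 5.99, and Anxa2's difference, which were chosen after the values were seen, 1554 genes had a level at least as high and 10 of them (0.64%) had an estimate as low. Anxa1, Anxa2 and Anxa3 are 3 of the 10 by the choice of limits, and Anxa1 and Anxa3 reach the level through the MIG libraries, so the count only places them and supports nothing. The others were Mpo, Chil3, Mmp8, Ms4a3 and Serpinb1a, genes of granulocyte precursors, and Rn18s and Rn45s, which hold ribosomal RNA sequence. Mmp8 too reaches the level through the MIG libraries, with 4.97 to 5.91 in MIG-Hhex libraries. Over the 1554 genes, 106 were called lower and 111 higher, and the granulocyte genes Ngp and S100a9 rose by 2.08 and 1.12. The estimates of the ribosomal genes, −1.58 and −1.28, did not pass the test (limma adjusted p = 0.144 and 0.237). Mpo, the peroxidase of primary granules, differed by −3.12, and Ms4a3, a marker of granulocyte and monocyte progenitors, by −1.84.

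**Figure D3:**
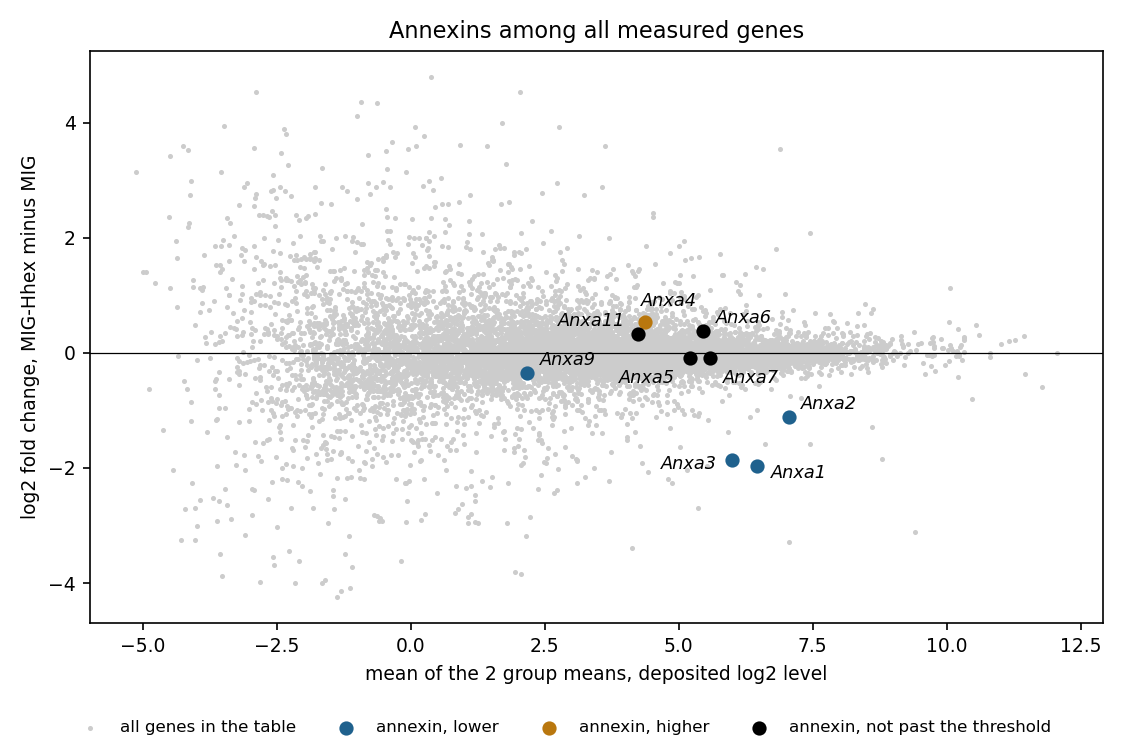
Log2 fold change, MIG-Hhex minus MIG (vertical axis), against the mean of both group means on the deposited log2 scale (horizontal axis) for all 12161 genes (grey) and the 9 annexins (coloured by call). Anxa1, Anxa2 and Anxa3 stand below the main band of highly expressed genes, at −1.96, −1.12 and −1.87.

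Anxa4, an annexin best known from secretory epithelia, was the single member to rise. It lies at chr6:86736840-86793634 on the minus strand. The level was 4.55, 4.68 and 4.66 in MIG-Hhex libraries WT3, WT691 and WT703, and 4.26, 3.95 and 4.09 in MIG libraries, so the lowest MIG-Hhex library lay above the highest MIG library. The difference was 0.53 (SE 0.09, limma adjusted p = 0.0129), with 0.29 in the C3RJFACXX pair and 0.65 on C5LWPANXX (limma adjusted p = 0.0145). The call was lost without MIG-Hhex library WT691 or MIG library WT703 (limma adjusted p = 0.0595 and 0.0503), without the WT691 or WT703 pair (limma adjusted p = 0.0514 and 0.0925), and without the flow cell term (limma adjusted p = 0.0812).

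Anxa6, which carries the annexin core in duplicate and takes part in endosome and cholesterol traffic, differed by 0.38 (SE 0.12, limma adjusted p = 0.0699). It lies at chr11:54978953-55033471 on the minus strand. The level was 5.90, 5.70 and 5.34 in MIG-Hhex libraries and 5.55, 5.28 and 4.96 in MIG libraries, in the order WT3, WT691, WT703. The groups overlapped, but the 3 pairs differed by 0.35, 0.42 and 0.38. With the replicate block, which compares libraries of equal replicate name, the same difference had an SE of 0.05 and passed (limma adjusted p = 0.00388). It also passed without the WT691 pair (limma adjusted p = 0.0286).

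Anxa11 and Anxa7 have long tails that bind the calcium sensor ALG-2, and Anxa11 is known for tethering RNA granules to lysosomes. Anxa11 (chr14:25842127-25886804, plus strand) lay at 4.17, 4.53 and 4.45 in MIG-Hhex libraries WT3, WT691 and WT703, and at 3.60, 4.32 and 4.29 in MIG libraries. It differed by 0.32 (SE 0.09, limma adjusted p = 0.0585, and 0.0516 with the replicate block), and the MIG library of WT3 stood well below the rest. The pair difference was 0.57 in WT3, against 0.21 and 0.16 in the others, and the estimate on C5LWPANXX alone was 0.19 (limma adjusted p = 0.164). Exons of the antisense gene Anxa11os overlap those of Anxa11, and without knowledge of strand in the counting their reads cannot be told apart.

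Anxa7, or synexin, promotes membrane fusion and lies at chr14:20455261-20480133 on the minus strand. It had values of 5.65, 5.52 and 5.43 in MIG-Hhex libraries and 5.65, 5.58 and 5.65 in MIG libraries. Anxa5, the protein used in labelled form to stain phosphatidylserine on dying cells, lies at chr3:36448923-36475887 on the minus strand. It had values of 5.29, 5.15 and 5.03 in MIG-Hhex libraries and 5.41, 5.27 and 5.08 in MIG libraries. For both genes the groups overlapped and the estimate was −0.09 (SE 0.06 for Anxa7 and 0.07 for Anxa5; limma adjusted p = 0.309 and 0.397).

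Anxa9 is an atypical annexin and was the one with the lowest level. It lies at chr3:95296093-95315180 on the minus strand. Its exons overlap those of Mindy1 on the opposite strand and of 6330562C20Rik on the same strand, so its value is uncertain. The level was 2.26, 1.82 and 1.91 in MIG-Hhex libraries and 2.64, 2.19 and 2.22 in MIG libraries, in the order WT3, WT691, WT703. The groups overlapped because the MIG-Hhex library of WT3 lay above both MIG libraries of the other flow cell, while the pairs differed by −0.38, −0.37 and −0.31. The estimate was −0.35 (SE 0.10, limma adjusted p = 0.0483). The call was lost on C5LWPANXX alone (limma adjusted p = 0.158), without the flow cell term (0.491) and in each of the 9 fits with a library or pair removed (limma adjusted p between 0.0912 and 0.164). Exons of genes on the opposite strand also overlap those of Anxa2 and Anxa4, and an unnamed same-strand gene overlaps Anxa3.

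The order of the annexins by level differed between the groups. In MIG cells the means ran from Anxa2 (7.61) through Anxa1 (7.43), Anxa3 (6.93), Anxa7 (5.63), Anxa6 (5.27), Anxa5 (5.25), Anxa4 (4.10) and Anxa11 (4.07) to Anxa9 (2.35). Of the neighbours in that order, Anxa6 and Anxa5 changed places between MIG libraries, as did Anxa4 and Anxa11, and the others kept their order in 3 of 3. In MIG-Hhex cells the means ran from Anxa2 (6.49) through Anxa6 (5.65), Anxa7 (5.54), Anxa1 (5.48), Anxa5 (5.16), Anxa3 (5.05), Anxa4 (4.63) and Anxa11 (4.39) to Anxa9 (1.99). Here the order among Anxa6, Anxa7 and Anxa1 differed between libraries, as did that among Anxa5, Anxa3 and Anxa4, while the other neighbours kept their order in 3 of 3. By group mean Anxa3 stood at rank 3 in MIG and rank 6 in MIG-Hhex cells, and Anxa6 at rank 5 and rank 2. Anxa3 had rank 3 in each MIG library. In MIG-Hhex libraries its rank was 2 in WT3, 7 in WT691 and 8 in WT703. These comparisons between genes assume that the deposited levels are per length of gene, which the values bear out in that library distributions lie closer once log2 length is added back.

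On a linear scale, obtained by raising 2 to the log2 level, the summed annexin level was 452, 331 and 299 in MIG-Hhex libraries WT3, WT691 and WT703, and 769, 640 and 580 in MIG libraries. Anxa1, Anxa2 and Anxa3 together made up 56.8%, 43.8% and 44.1% of that sum in MIG-Hhex libraries, and 77.0%, 74.2% and 73.0% in MIG libraries. The means were 48.2% ± 7.4 with MIG-Hhex and 74.7% ± 2.0 with MIG (SD, n = 3 each). The sum of the other 6 members was 196, 186 and 167 in MIG-Hhex libraries and 177, 165 and 156 in MIG libraries, so that MIG-Hhex stood at 1.11, 1.13 and 1.07 times MIG in the 3 pairs. The lower total in MIG-Hhex cells was thus carried by 3 genes, whose sum stood at 0.434, 0.305 and 0.312 times that in MIG. No test was run on these sums, since the members were grouped after their values were known.

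**Figure D4:**
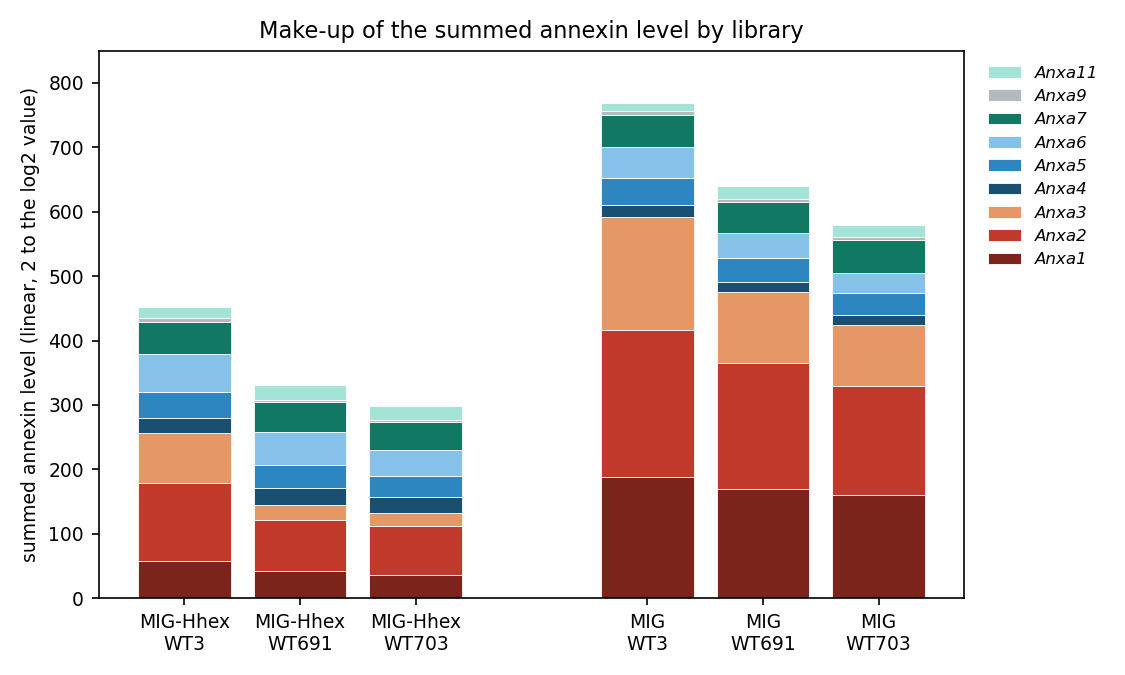
Summed annexin level per library on a linear scale (vertical axis, 2 to the power of the deposited log2 level), stacked by gene, with the 3 MIG-Hhex libraries on the left and the 3 MIG libraries on the right. The red and orange segments (Anxa1, Anxa2 and Anxa3) add up to between 132 and 257 in MIG-Hhex libraries and between 423 and 592 in MIG libraries, while the blue, green and grey segments differ little.

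S100a11 and S100a4, which bind annexins, rose. Of 8 binding partners listed and measured, 0 fell and 2 rose, and the other 6 were not past the threshold, against 8.52% of all genes lower and 9.44% higher. The median of the 8 was 0.21. S100a11, the partner of Anxa1, differed by 0.54 (SE 0.08, limma adjusted p = 0.00937), and S100a4, a partner of Anxa2, by 0.70 (SE 0.15, limma adjusted p = 0.0227). The S100a11 call was lost without the WT703 pair (limma adjusted p = 0.0591) and without the flow cell term (0.478), and that of S100a4 in 6 of the 9 fits with a library or pair removed, with limma adjusted p up to 0.141. S100a10, the classical partner of Anxa2, lay at 7.86, 7.54 and 7.51 in MIG-Hhex libraries and 8.10, 7.08 and 7.17 in MIG libraries, with an estimate of 0.19 that did not pass (limma adjusted p = 0.345). The direction of S100a10 was opposite on the 2 flow cells, since the WT3 library was lower with MIG-Hhex while the estimate on C5LWPANXX was 0.40 (limma adjusted p = 0.0305). On C5LWPANXX alone 5 partners were called higher, beside 698 of all 12161 genes in that fit. Ahnak, a scaffold of the Anxa2 complex, had an estimate of 0.93 (limma adjusted p = 0.0632, and 0.0415 with the replicate block).

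Within a library, the level of Anxa2 minus that of S100a10 was −0.95, −1.22 and −1.27 on the log2 scale in MIG-Hhex libraries WT3, WT691 and WT703, and −0.25, 0.53 and 0.22 in MIG libraries. Anxa1 minus S100a11 was −2.16, −2.09 and −2.14 in MIG-Hhex libraries and −0.10, 0.57 and 0.64 in MIG libraries. Transcripts of both annexins thus stood below those of their S100 partners in each MIG-Hhex library, and in MIG libraries only in WT3.

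Receptors that Anxa1 acts on had low levels. Fpr1, the high-affinity formyl peptide receptor, lay at 0.29, −1.19 and −3.80 in MIG-Hhex libraries WT3, WT691 and WT703, and at 1.87, 1.18 and 1.09 in MIG libraries. It fell by 2.94 (SE 0.72, limma adjusted p = 0.0368), a size that is uncertain at values below 0, and lost its call in 7 of the 9 fits with a library or pair removed (highest limma adjusted p 0.121) and on C5LWPANXX alone. Fpr2, the receptor best known for Anxa1, lay at 1.93, 0.27 and −2.48 with MIG-Hhex and at 3.24, 2.43 and 1.77 with MIG. Its estimate of −2.57 did not pass (SE 0.74, limma adjusted p = 0.0576, and 0.0185 with the replicate block). Pla2g4a, the cytosolic phospholipase A2 that releases arachidonic acid and that Anxa1 restrains, had an estimate of −0.26 (limma adjusted p = 0.135). Of the 4 measured of 10 listed genes of this set, 1 fell and 0 rose, against 8.52% of all genes lower and 9.44% higher. The median of the 4 was −1.42.

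Among 5 measured of 9 listed genes of plasminogen activation, 1 was called in each direction, and 3 missed the threshold. Of all genes, 8.52% were lower and 9.44% higher. The median of the 5 was −0.22. Plaur, the urokinase receptor, rose by 0.75 (SE 0.13, limma adjusted p = 0.0136) and lost its call without the WT703 pair (limma adjusted p = 0.0628) and without the flow cell term (0.232). Serpine2, an inhibitor of serine proteases that include plasminogen activators, fell by 1.76 (SE 0.15, limma adjusted p = 0.00162). Plau, which encodes urokinase, and Plgrkt, a plasminogen receptor, had estimates of −0.22 and 0.05 and did not pass.

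Of 9 measured of 15 listed membrane repair genes, 1 fell, 0 rose and the other 8 missed the threshold. Over all genes 8.52% were lower and 9.44% higher. The median of the 9 was 0. Smpd1, the acid sphingomyelinase that lysosomes release on injury, lay at 1.71, 0.82 and 0.73 in MIG-Hhex libraries and 3.22, 3.06 and 2.85 in MIG libraries, a fall of 1.95 (SE 0.16, limma adjusted p = 0.0016). The calpains Capn1 and Capn2 and the ESCRT genes Chmp4b, Vps4a, Vps4b and Pdcd6ip had estimates between −0.04 and 0.17, and Myof, a ferlin with low values, −0.63.

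Genes that expose or recognise phosphatidylserine, the lipid annexins bind, moved in both directions. Of 18 measured of 25 listed, 3 fell, 4 rose and the other 11 missed the threshold, beside 8.52% of all genes lower and 9.44% higher. The median of the 18 was 0.26. Axl, a receptor tyrosine kinase that senses phosphatidylserine through its ligand Gas6, lay at 1.05, 1.53 and 1.26 in MIG-Hhex libraries and −0.41, −0.92 and −0.80 in MIG libraries. It rose by 1.99 (SE 0.23, limma adjusted p = 0.0037), and Gas6 rose by 2.00 (SE 0.34, limma adjusted p = 0.012). Gas6 lost its call without the WT691 or WT703 pair and without MIG-Hhex library WT691 (limma adjusted p up to 0.0758). Cd300a, an inhibitory receptor for the lipid, rose by 0.85 and Atp11b, a flippase, by 0.24 (limma adjusted p = 0.00738 and 0.0195), the call of Atp11b being lost in 8 of those 9 fits and that of Cd300a without the WT703 pair (limma adjusted p = 0.058). Havcr2, the receptor TIM-3, fell by 1.97, the scramblase gene Plscr1 by 0.77 and Tmem30a, the shared flippase subunit, by 0.43 (limma adjusted p = 0.0213, 0.0149 and 0.00494). Havcr2 and Plscr1 each lost the call in 5 of the 9 (highest limma adjusted p 0.101 and 0.0756), and Tmem30a without the WT703 pair (0.0507). With the replicate block 7 members of this list were higher, Cd300lf, Ano6 and Atp11a in addition (limma adjusted p = 0.0258, 0.0368 and 0.0344). Pros1 was lower as well (limma adjusted p = 0.0297). Over all genes that block gave 1506 higher and 1473 lower. Without the flow cell term, Axl, Serpine2 and Smpd1 kept their calls, and the other called members of these lists, Fpr1 and S100a4 included, lost them.

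**Figure D5:**
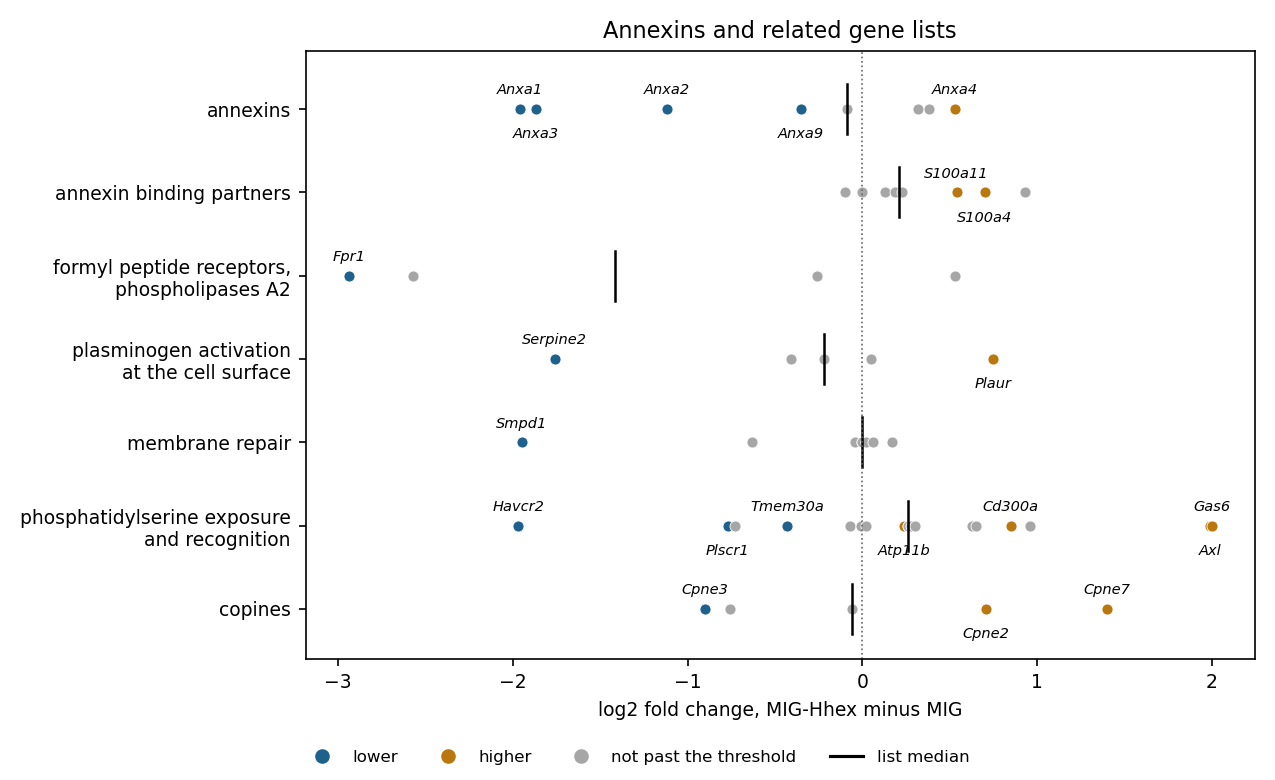
Log2 fold change, MIG-Hhex minus MIG (horizontal axis), of the annexins and of each measured member of 6 related gene lists (rows); blue points were lower and orange points higher at an adjusted p under 0.05, grey points did not pass, and black bars are medians. Anxa1, Anxa3 and Anxa2 lie at −1.96, −1.87 and −1.12, while binding partners lie between −0.10 and 0.93.

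For each called annexin, the 3 genes whose log2 values ran closest to it over the 6 libraries were taken by Pearson's r among 10176 named genes with a mean of at least 0. With 6 libraries in 2 groups such values are high for many genes (40 genes passed 0.98 for Anxa3), and they are given as a description. For Anxa1 they were Spg20, Slc25a24, a mitochondrial ATP-magnesium carrier, and Gpsm2 (r between 0.9977 and 0.9983). These differed by −0.33, −2.02 and −1.0, against −1.96 for Anxa1. For Anxa2 they were Vps26b, Tmem50b and Naa60. For Anxa3 they were Cdc42ep3, Ms4a3 and Me2 (r between 0.9944 and 0.9973), which differed by −1.25, −1.84 and −0.27, against −1.87 for Anxa3. For Anxa4 they were Nab2, Gng2 and Arl4c, each higher with MIG-Hhex, and for Anxa9 Lyl1, Mrpl44 and Atp6v1h.

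Among lists of markers of mature blood cells, those of eosinophils and lymphoid cells held 2 and 1 genes called higher and none called lower. Both also held estimates below 0 that missed the threshold. The other lists held genes called in both directions, against 9.44% of all genes higher and 8.52% lower. Of 13 measured neutrophil markers 7 rose and 3 fell, and their summed linear level was 4980 to 6330 in MIG-Hhex libraries and 5630 to 6360 in MIG libraries. Those that fell were Mpo, Mmp8 and Fpr1, and those that rose were Cxcr2, Cebpe, Mmp9, S100a9, Camp, Ngp and Ltf. Elane, Lcn2 and S100a8 had estimates of −0.14, 0.32 and 0.48 that missed the threshold. Of 14 markers of monocytes, macrophages and dendritic cells 4 rose and 3 fell, with sums of 350 to 943 in MIG-Hhex and 381 to 861 in MIG libraries. Ccr2, F13a1 and Cd14 fell by 2.04, 2.69 and 0.75, and Itgax, Cd74, H2-Aa and Adgre1 rose by 3.04, 2.37, 2.12 and 1.42, while Ly6c2 had an estimate of 0.34 that missed the threshold (limma adjusted p = 0.241). Of 7 measured mast cell and basophil markers 1 rose and 3 fell, with sums of 147 to 275 in MIG-Hhex and 191 to 427 in MIG libraries. Cpa3, Ms4a2 and Mcpt8 fell by 2.19, 1.52 and 1.12 and Hdc, the histamine-forming enzyme, rose by 1.35, while Fcer1a, Prss34 and Mitf had estimates of −2.35, −0.27 and −0.17 that missed the threshold. Of 8 eosinophil markers 2 rose, Alox15 and Siglecf, with sums of 63 to 122 in MIG-Hhex and 8.03 to 83.5 in MIG libraries. Estimates of the other 6 ran from −0.99 for Prg3 to 1.86 for Prg2. Of 10 megakaryocyte markers 4 rose and 1 fell, and of 8 erythroid markers 3 rose and 2 fell. Of 5 measured of 12 lymphoid markers 1 rose, Cd7, and the other 4 had estimates from −0.58 for Il7r to 0.24 for Cd79b. The defining mast cell protease genes Mcpt4, Tpsb2 and Cma1 and the lymphoid genes Pax5 and Cd3e were not analysed here. The part of these cell types in the annexin differences was not tested.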

How the data were processed

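Messenger RNA of 6 LSK libraries was measured. The deposited values are log2 expression levels for 12161 Entrez genes; how the authors normalized them, and with which gene lengths, is not given in the sources used here. Of tools, the submitters' processing notes name mm10, featureCounts, edgeR, Subread and limma, without versions or order. Depth is unknown, so no intervals from counts are given and no count model was used. Levels between genes are read as per length: adding log2 exon length (GENCODE M21) narrowed the range of the 90% quantile across libraries from 0.214 to 0.0208.

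Groups came from the vector label. The log2 values were fitted with limma 3.58.1 in R 4.3.3 (vector and flow cell terms, mean-variance trend, two-sided), with Benjamini-Hochberg adjustment over all genes and a threshold of 0.05; the procedure was tested on simulated data. The named genes are the annexins, members of related lists past the threshold, Hhex, and the 3 closest genes by Pearson's r to each called annexin, leaving out unnamed transcripts. List members that missed the threshold, marker genes and the high-level genes were named in addition, after their values were seen. The members and lists were chosen with earlier results of these data known.

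Libraries of equal replicate name deviated together from their group means (correlation 0.742 for WT3, 0.585 for WT691 and 0.656 for WT703). Across the names WT691 and WT703, which share a flow cell, the correlations were 0.087 and 0.166. The WT3 value cannot tell replicate from flow cell, since that pair alone was on C3RJFACXX. The names were taken as pairs from the titles, and the replicate block was run beside the fit without it. Alternatives were other scalings, a pseudocount of 1, a filter at a mean log2 of 0, removal of a GC trend, no flow cell term, no trend, one flow cell, and each library or pair left out. Gene coordinates and upstream sequences are RefSeq's on GRCm38.p6, matched for 12052 genes by Entrez ID; 7 of the 9 annexins have a window. No per-sample column was left unused.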

Additional observations from a re-analysis of the deposited data

How the results depend on the processing

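Over all genes, 2184 passed with the flow cell term. The count was 217 without that term, 1429 without the mean-variance trend and 1217 on flow cell C5LWPANXX alone, and it ran from 625 to 1469 when a library or pair was left out, lowest without the WT703 pair. With the replicate block 2979 genes passed. Of the annexins, 1 was higher (Anxa4), against 0 without the flow cell term, 2 with the replicate block (Anxa4 and Anxa6) and 0 to 1 in left-out runs, the 1 being Anxa6 in place of Anxa4 without the WT691 pair. The lower annexins numbered 4, against 1 without the flow cell term (Anxa1) and 3 to 3 in left-out runs (Anxa1, Anxa2 and Anxa3). The replicate block changed no other annexin call. Quantile normalization, median centring, a pseudocount of 1, the filter on a mean log2 of 0 and removal of a GC trend kept each annexin call. No annexin changed sign past the threshold in any of these fits. The cause of these shifts was not tested. The flow cell interaction was chosen after seeing the data. Unknown depth limits the reading of values below 0, such as those of Fpr1.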

Other observations

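Copines are another family of calcium-dependent phospholipid-binding proteins, built on C2 domains in place of the annexin core. Of 9 copines listed, 5 were measured. With MIG-Hhex 1 fell, 2 rose and the other 2 missed the threshold, against 8.52% of all genes lower and 9.44% higher. The median of the 5 was −0.06. Cpne3 lay at 3.98, 4.30 and 4.30 in MIG-Hhex libraries WT3, WT691 and WT703, and at 4.79, 5.23 and 5.26 in MIG libraries, without overlap. On the log2 scale it fell by 0.90 (SE 0.06, limma adjusted p = 0.000892). Cpne2 lay at 6.10, 5.98 and 6.12 in MIG-Hhex libraries and at 5.49, 5.29 and 5.28 in MIG libraries, also without overlap, and rose by 0.71 (SE 0.06, limma adjusted p = 0.00179). Cpne7 rose by 1.40 (SE 0.35, limma adjusted p = 0.0388), a call lost in 6 of the 9 fits with a library or pair removed (highest limma adjusted p 0.137). Without the flow cell term the call of Cpne3 was lost (limma adjusted p = 0.0583) and that of Cpne2 was not.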
